A study of Mus musculus with 6 samples.

Results

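Rab GTPases are small membrane switches that direct vesicle traffic, and their transcripts were described in mouse pancreatic islets that differed in genotype at Wtap. Members were all protein-coding rows of the gene table whose name is Rab followed by a number and at most one letter from a to d. The rule used names and no measured value, and it found 59 of the 54532 genes in the table, of which 22046 are protein coding. Of the 59, 50 had a mean of at least 0.5 FPKM over the 6 samples and were tested, and 9 were below that level.

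The islets came from Wtap-βKO mice and from Wtap flox/flox mice, all 7 weeks old, with 3 samples in each group. Each sample pooled the islets of 3 mice, and the replicates are described in the labels as biological and independent. WTAP, the protein made from Wtap, anchors the enzymes that place N6-methyladenosine (m6A) on nuclear RNA, and Wtap-βKO names a deletion meant for the insulin-producing β cells. The labels name neither the Cre line nor the deleted exons, nor do they say whether the Wtap flox/flox mice carried a Cre. Whether the Wtap-βKO mice carry the same floxed allele is also left unsaid in the labels. Poly-A RNA was sequenced, and values are FPKM, that is, fragments per kilobase of gene, scaled for depth.

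A Rab protein carries lipid tails, sits on a particular membrane when bound to GTP, and is pulled back into the cytosol by GDP dissociation inhibitors when bound to GDP. Exchange factors load GTP, GTPase-activating proteins end the active state, and effectors read the active form to tether, move or fuse vesicles. In β cells, Rabs of the Rab3 and Rab27 families are known for the docking and release of insulin granules, Rab1, Rab2 and Rab6 for transport through the ER and Golgi, and Rab5, Rab7 and Rab11 for endosomes.

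Between 16353297 and 18682745 reads per library were recovered from the FPKM values, with 16634843 to 17653297 in the libraries labelled Wtap-βKO and 16353297 to 18682745 in the Wtap flox/flox libraries. Wtap itself had 11.2, 11.9 and 12.3 FPKM in Wtap-βKO, against 10.5, 11.4 and 11.6 FPKM in Wtap flox/flox (a log2 difference of 0.07 with SE 0.063 and adjusted p = 0.475 by limma). Wtap was therefore not lower over the whole gene in whole islets, and all directions are those of the libraries as labelled, for which Wtap-βKO and Wtap flox/flox stand here. The summed FPKM of 9 β-cell markers was 81579 to 92204 in Wtap-βKO, against 134464 to 154675 in Wtap flox/flox, with 7 of the 9 called lower. The sum of 6 α-cell markers was 33763 to 44610.5 in Wtap-βKO, against 21220.1 to 25431 in Wtap flox/flox, with 4 called higher, and that of 4 δ- and PP-cell markers was 15032 to 27860 in Wtap-βKO, against 12552 to 14079 in Wtap flox/flox, with 2 called higher. Sums of the other marker lists, Wtap-βKO against Wtap flox/flox, were 161 to 230.2 against 93.5 to 165 for acinar cells (1 of 7 tested called higher), 56.6 to 85.4 against 42.4 to 48.6 for ductal cells (1 of 5) and 27.9 to 36.4 against 14.3 to 20.4 for mesenchymal cells (4 of 6). They were, Wtap-βKO against Wtap flox/flox, 181 to 208 against 152 to 183 for endothelial cells (1 of 6), 111 to 122 against 92.6 to 102 for macrophages (1 of 6) and 48.0 to 56.7 against 11.5 to 14.1 for lymphocytes (2 higher and 1 lower of 3). Wtap-βKO against Wtap flox/flox, glial and neuronal markers summed to 7.23 to 8.91 against 5.75 to 7.68 (0 of 5), and red blood cell markers to 44.1 to 52.9 against 29.4 to 33.9 (1 of 4 higher). In bulk islets, fewer cells of a type and less RNA per cell cannot be told apart, and the part of these shifts in the Rab values was not tested.

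The most abundant Rab transcripts were lower in the libraries labelled Wtap-βKO. The Rabs called higher, 3 of 50 tested, were near the 8.77% of all genes called higher. By limma, at an adjusted p under 0.05, 17 members fell, 3 rose (Rab23, Rab9 and Rab33b) and 30 were not called. That is 40.0% of the 50 tested, against 20.1% of all 15927 genes tested, of which 11.3% were called lower and 8.77% higher. The groups did not overlap for 21 members in the lower direction and 9 in the higher, 30 of 50, against 41.3% of all genes (22.1% lower and 19.1% higher). The median log2 fold change was -0.07 over the 50 Rabs and -0.01 over all genes tested. The call share of all genes itself rises with level, so the shares of Rabs split at 20 and 5 FPKM are set beside protein-coding genes of the same level, while the counts by role were not matched for level and are read against the 20.1%.

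All 9 Rabs with the highest means over the 6 samples were called lower, namely Rab2a, Rab7, Rab1a, Rab1b, Rab27a, Rab3d, Rab18, Rab5c and Rab3a, which together held 56.2% of the summed FPKM of the family. The run of 9 ends at Rab10, the next by mean, which was not called (adjusted p = 0.322 by limma). Of the 9, only Rab2a, Rab7 and Rab1a kept the call under every alternative setting. Neither the count of 9 nor the cut at 20 FPKM was part of the planned comparisons. The cuts use the mean over both groups, so a member can pass through its higher group alone. At 20 FPKM this held for Rab25, called lower (17.4 FPKM in Wtap-βKO, 23.7 FPKM in Wtap flox/flox). The next Rab under that cut, Rab21 (18.1 FPKM), was not called. At 5 FPKM it held for Rab19, called lower (4.36 and 6.11 FPKM), and Rab20, not called (4.83 and 5.57 FPKM). Of the 16 members with a mean of at least 20 FPKM, 12 fell and 0 rose (75.0%), with 13 at an unadjusted p under 0.05, against 37.7% of the 2024 protein-coding genes at that level (25.3% lower and 12.4% higher). The groups did not overlap for 15 of these 16, all in the lower direction, against 60.0% of genes at that level (39.3% lower), and the median log2 fold changes were -0.34 for the Rabs and -0.08 for the genes of that level. Among the 16, lower calls numbered 7 and 9 without Wtap-βKO replicate 1 and 3, 6, 8 and 6 without Wtap flox/flox replicate 1, 2 and 3, and 8 with scaling by total reads, and 15.5% to 18.6% of the genes of that level were lower in those 6 settings. At a mean of at least 5 FPKM, 16 of 36 members fell and 2 rose, against 28.2% of 7356 protein-coding genes (17.4% lower and 10.9% higher). Of the 34 tested members under 20 FPKM, 5 fell and 3 rose (23.5%), near the 19.3% of the 10691 tested protein-coding genes under that level (1074 genes lower and 991 higher, the higher ones 9.27%), with median log2 fold changes of 0.05 for the Rabs and 0.01 for those genes. All 59 members summed to 916, 989.7 and 953 FPKM in Wtap-βKO, against 1123, 1109 and 1149 FPKM in Wtap flox/flox, without overlap and with a ratio of means of 0.845. This sum and those by role are of the values as deposited, whose scaling differed between the groups.

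**Figure D1:**
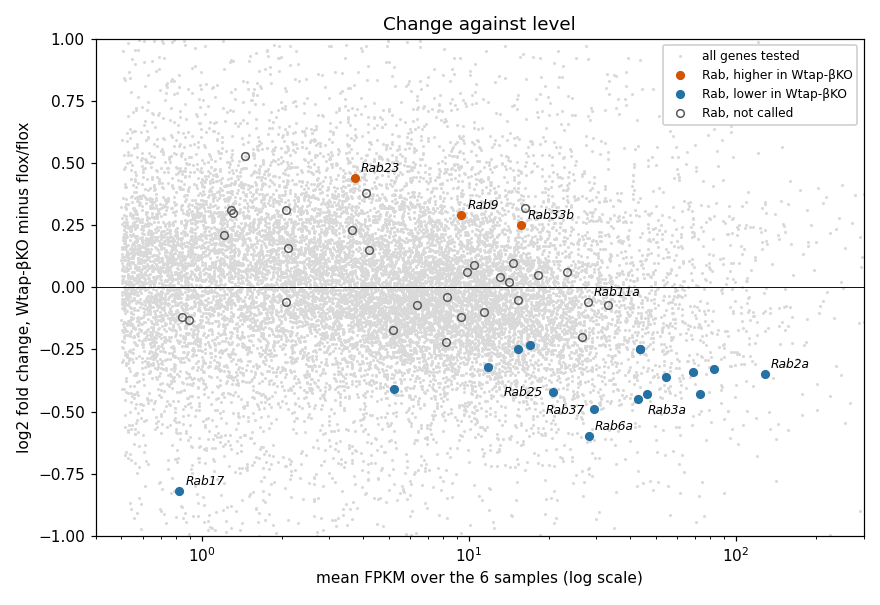
Mean FPKM over the 6 samples (log scale) on the x axis against the log2 fold change, Wtap-βKO minus Wtap flox/flox, on the y axis, for all genes tested (grey) and the 50 tested Rabs (coloured by call). The axes end at 1 on either side of 0 and a little above the most abundant Rab, so some grey points are not drawn, and the 9 Rabs with the highest means all lie below 0.

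Calls varied in how far they held. Rab2a, Rab7, Rab1a, Rab37, Rab6a, Rab25, Rab14 and Rab23 were called in the same direction under each alternative setting that tested them, 19 settings in all and 18 for Rab23. When scaled to total recovered reads, 10 members were lower and 5 higher, and 13 of the 20 calls were kept. That scaling set the log2 median over all tested genes at 0.08. Higher genes then made up 68.1% of calls over all genes (2334 higher and 1094 lower), and 53.8% (1676 and 1440) after rescaling without the 50 highest genes, against 43.7% in the values as deposited. Leaving out a library left between 8 and 17 lower members and between 1 and 3 higher ones. Without Wtap-βKO replicate 1 the counts were 8 lower and 1 higher, without Wtap-βKO replicate 3 they were 10 and 1, and without Wtap flox/flox replicate 1 they were 8 and 1. Without Wtap flox/flox replicate 2 there were 9 lower members, and without Wtap flox/flox replicate 3 there were 8, with 2 higher in either case.

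**Figure D2:**
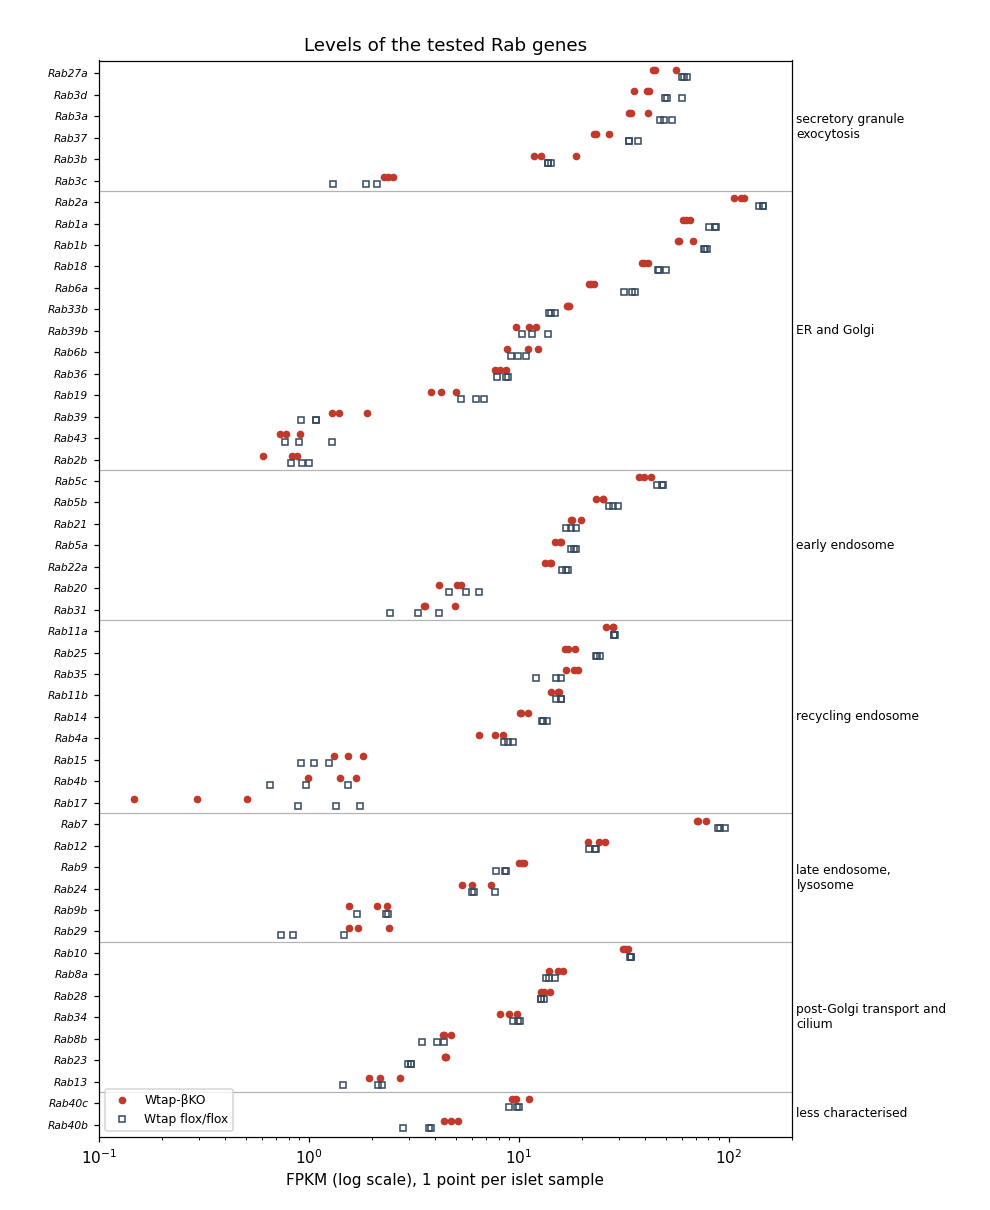
FPKM on a log scale (x axis) of each tested Rab gene (y axis, grouped by role), with 1 point per islet sample, filled circles for Wtap-βKO and open squares for Wtap flox/flox. The groups separate for Rab6a, Rab37 and Rab1a, whose circles all lie left of the squares, and overlap for Rab3b, Rab12 and Rab28.

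Because WTAP belongs to the m6A writer, the transcripts were searched for GGACT, a common form of the methylated motif. GENCODE M21 gave a complete coding transcript for all 59 members. The 17 members called lower had a median of 0.0 GGACT per kilobase of coding sequence, the 3 called higher 1.4 and the 30 tested and not called 0.57, against 1.07 over 12637 tested protein-coding genes. Rab coding sequences are short, with a median of 648 bases over the 59 members against 1395 bases over those genes, so a single motif moves the value strongly. Within 150 bases of either side of the stop codon, where m6A is known to be common, 4 of 17 lower members (23.5%), 0 of 3 higher members and 6 of 30 members not called held GGACT, against 32.6% of the tested protein-coding genes. The sites near the stop codons of lower members are shown, as the matches behind that count, each as 25 bases of the 3′ UTR with the motif in capitals, and a match is a description, since methylation was not measured.
Rab3d, 74 bases after the stop codon: tgagctatggGGACTgtctctcagc
Rab25, 66 bases after: ccttactgcaGGACTtctccctacc
Rab22a, 102 bases after: tatgcaaaaaGGACTcagagaaccg
Rab19, 124 bases after: ctgccctcaaGGACTccattaaagt
Rab19, 141 bases after: attaaagtgaGGACTtcaggccctg

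Promoters were read from RefSeq (GRCm38.p6) for 48 of the 59 members, as 250 bases before and 50 after the start site, and motifs were counted on both strands. For each member 1 promoter was kept, the one with its start nearest that of the gene in the table. The promoters set beside them were not reduced to 1 per gene. The GC box GGGCGG was in 34 of 48 members (70.8%), against 62.2% of the 12733 promoters of tested protein-coding genes and 35.7% of all 32851 promoters. CCAAT was in 23 of 48 (47.9%), against 37.3% of tested genes' promoters and 37.4% of all. Among members called, CCAAT was in 7 of 14 lower and 0 of 3 higher, and GGGCGG in 10 of 14 and 2 of 3. The cyclic AMP response element TGACGTCA was in 2 of 48 members (4.17%), near the 3.09% of tested genes' promoters, and in 1.79% of all. The 2 were Rab25 and Rab5a, both called lower, and the Rab5a call was lost in 8 of the 19 alternatives. With shares in the same order, CACGTG was in 5 members (10.4%) against 9.71% and 7.15%, TATAAA in 4 (8.33%) against 7.13% and 13.6%, and ACGTGGC, which can overlap CACGTG, in 3 (6.25%) against 3.7% and 2.58%. Neither TGCTGAC (3.63% and 4.67%) nor the ER stress response element (0.126% and 0.119%), which contains CCAAT, was found in these windows of members.

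The 250 bases before the start site are shown for Rab6a, a Golgi Rab and the lower member with the smallest adjusted p, and for Rab23 and Rab9, a regulator of Hedgehog signalling and a late endosome Rab, the higher members with the largest log2 changes, with the motifs in capitals (in Rab6a, CCAAT and its reverse complement). They lie at chr7:100607336-100607585 on the plus strand for Rab6a, whose RefSeq start is 176 bases inside the gene of the table, at chr1:33719646-33719895 on the plus strand for Rab23 and at chrX:166479868-166480117 on the minus strand for Rab9, all 5′ to 3′. Rab6a holds CCAAT in either orientation, Rab23 holds the CACGTG motif and a GC box, and the Rab9 window holds none of the 8 motifs searched. Rab17, the lower member with the largest log2 change, is not printed. Its window, with a RefSeq start 1994 bases inside the gene of the table, holds none of the 8 motifs either.
Rab6a: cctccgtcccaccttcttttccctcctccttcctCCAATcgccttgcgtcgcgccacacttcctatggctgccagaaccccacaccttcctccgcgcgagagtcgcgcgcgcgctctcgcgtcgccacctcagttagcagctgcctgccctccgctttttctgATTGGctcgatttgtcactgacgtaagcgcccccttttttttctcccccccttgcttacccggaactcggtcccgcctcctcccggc
Rab23: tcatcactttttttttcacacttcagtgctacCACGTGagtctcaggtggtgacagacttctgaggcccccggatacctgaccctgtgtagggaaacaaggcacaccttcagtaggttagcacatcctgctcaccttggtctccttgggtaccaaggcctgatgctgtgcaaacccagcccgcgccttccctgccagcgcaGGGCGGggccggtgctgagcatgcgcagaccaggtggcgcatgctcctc
Rab9: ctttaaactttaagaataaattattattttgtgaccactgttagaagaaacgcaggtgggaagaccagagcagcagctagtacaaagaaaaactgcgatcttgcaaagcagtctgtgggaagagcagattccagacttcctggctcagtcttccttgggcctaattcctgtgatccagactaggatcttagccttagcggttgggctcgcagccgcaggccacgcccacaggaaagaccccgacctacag

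The Rabs of secretory granule exocytosis showed the lowest median of the roles, -0.40, with 4 of 6 tested members lower and 0 higher. Those 4 had means of at least 20 FPKM, where 25.3% of protein-coding genes were lower, and the tested members not called lay under that level. Lower calls in the role numbered 2 without Wtap-βKO replicate 1 and 1 without Wtap flox/flox replicate 1 or 3. Rab37, a granule Rab of endocrine and mast cells, had 23.3, 26.9 and 22.8 FPKM in Wtap-βKO, against 33.5, 36.95 and 33.3 FPKM in Wtap flox/flox. Every Wtap-βKO value lay under every Wtap flox/flox value. The means were 24.3 ± 2.22 FPKM in Wtap-βKO and 34.6 ± 2.05 FPKM in Wtap flox/flox (SD, n = 3 each), 1.42-fold lower (log2 fold change -0.49 with SE 0.079, limma adjusted p = 0.00721). Rab3a, which acts in the docking and release of synaptic vesicles and insulin granules, had 34.3, 33.4 and 41.4 FPKM in Wtap-βKO, against 49.2, 46.9 and 53.5 FPKM in Wtap flox/flox, and fell 1.37-fold (log2 fold change -0.45 with SE 0.094, limma adjusted p = 0.0183). The groups did not overlap, but the call was lost without Wtap-βKO replicate 1 or Wtap flox/flox replicate 1 or 3, at adjusted p from 0.0577 to 0.0641.

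Rab3d, known from the zymogen granules of exocrine cells, had 40.7, 35.5 and 41.7 FPKM in Wtap-βKO, against 50.7, 49.4 and 60.1 FPKM in Wtap flox/flox. It fell 1.36-fold without overlap (log2 fold change -0.43 with SE 0.096, limma adjusted p = 0.0222), and lost the call without Wtap flox/flox replicate 1 or 3, at adjusted p of 0.053 to 0.0569. Rab27a, the Rab that recruits granuphilin to insulin granules, had 43.4, 56.03 and 44.7 FPKM in Wtap-βKO, against 61.4, 59.9 and 63.5 FPKM in Wtap flox/flox. Replicate 2 stood above the other Wtap-βKO libraries, though under all Wtap flox/flox libraries. Rab27a fell 1.28-fold (log2 fold change -0.36 with SE 0.099, limma adjusted p = 0.0441), a call that 9 of the 19 alternatives did not keep. Leaving out any library other than Wtap-βKO replicate 2 gave an adjusted p of 0.0985 to 0.126, and leaving out that replicate gave a log2 fold change of -0.47 and an adjusted p of 0.00296.

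The remaining granule Rabs were not called. Rab3b, a further Rab3 paralogue, had 11.8, 18.8 and 12.7 FPKM in Wtap-βKO, against 14.2, 13.8 and 13.7 FPKM in Wtap flox/flox. Wtap-βKO replicate 2 was the highest of all 6 and the other Wtap-βKO libraries were the lowest. The log2 fold change was 0.02 (adjusted p = 0.941 by limma), and without that replicate it was -0.17 (adjusted p = 0.0857). Rab3c, the least abundant of the 4 paralogues, had 2.51, 2.29 and 2.38 FPKM in Wtap-βKO, against 2.11, 1.3 and 1.86 FPKM in Wtap flox/flox, with no overlap (log2 fold change 0.31, adjusted p = 0.129 by limma, and 0.46 with an adjusted p of 0.0289 by limma voom on the recovered reads). Rab27b, the paralogue of Rab27a, was under the level tested, at 0.487, 0.528 and 0.538 FPKM in Wtap-βKO (98, 101 and 99 reads), against 0.224, 0.332 and 0.242 FPKM in Wtap flox/flox (42, 56 and 46 reads). Rab26, a Rab of exocrine secretory granules, was also not tested, with at most 0.407 FPKM in any library. Summed over its 8 members, the granule role had 157, 174 and 167 FPKM in Wtap-βKO, against 211, 209 and 227 FPKM in Wtap flox/flox, a ratio of means of 0.768.

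**Figure D3:**
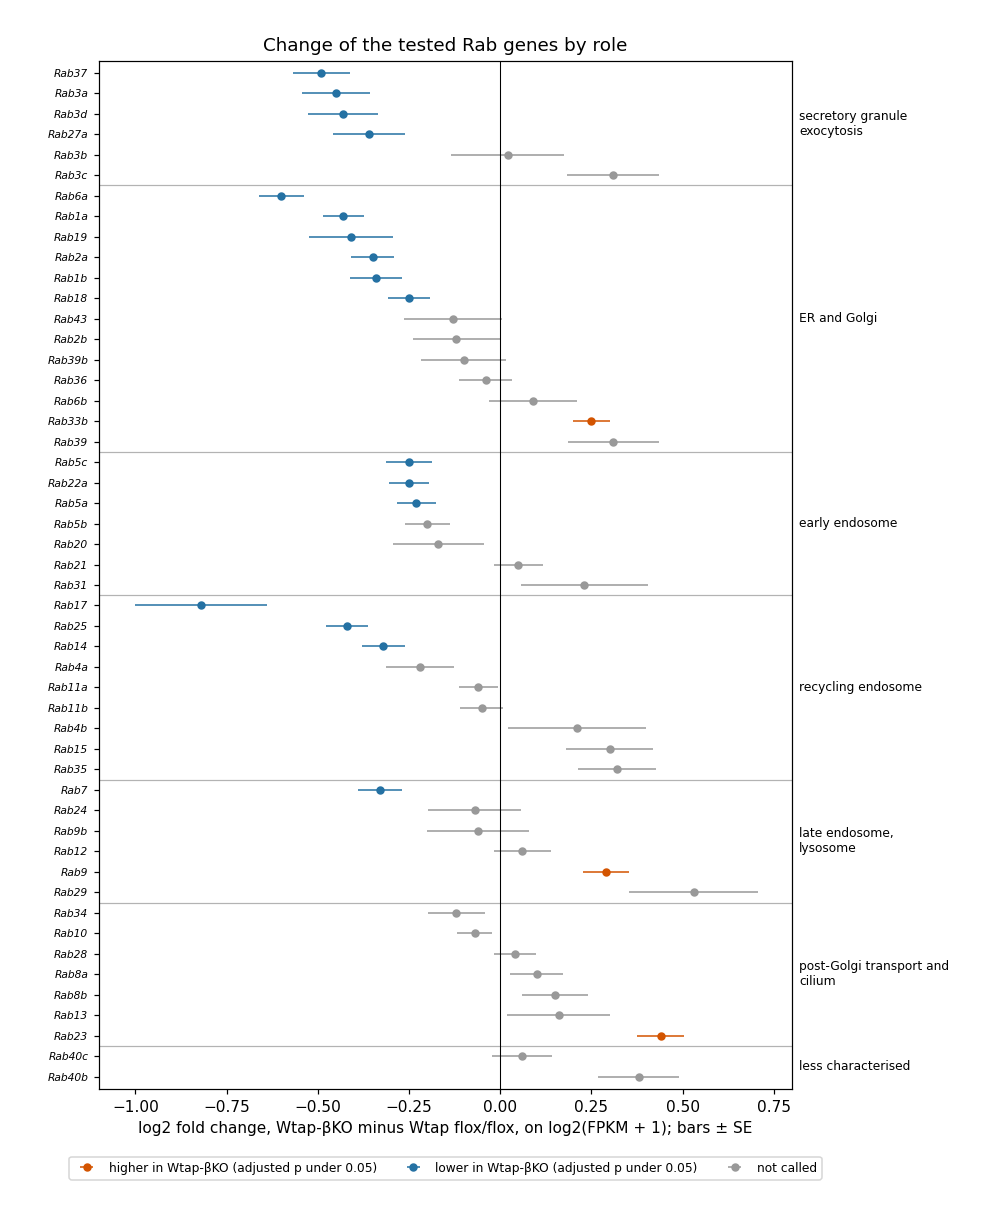
Log2 fold change on log2(FPKM + 1), Wtap-βKO minus Wtap flox/flox (x axis), for each tested Rab (y axis, grouped by role), with bars of 1 SE as moderated by limma. Points left of 0 are lower in Wtap-βKO. Among granule Rabs 4 of 6 are called lower, and among post-Golgi and cilium Rabs 0 of 7, against 11.3% of all genes tested. The roles are not matched for level. Those 4 granule Rabs have means of at least 20 FPKM, and of the 7 only Rab10 does.

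Among Rabs of the ER and Golgi, 6 of 13 tested members fell and 1 rose, with a median log2 fold change of -0.13. Lower calls in the role numbered 3 without Wtap-βKO replicate 1 or Wtap flox/flox replicate 1 or 2, 3 with scaling by total reads, and 4 without Wtap-βKO replicate 3, without Wtap flox/flox replicate 3, after quantile normalization or with no variance trend. Rab6a, which acts in transport within the Golgi and from the Golgi to the ER, had 22.1, 21.6 and 22.8 FPKM in Wtap-βKO, against 31.8, 34.7 and 35.7 FPKM in Wtap flox/flox. The groups were far apart relative to their spread, at 22.1 ± 0.585 FPKM in Wtap-βKO and 34.1 ± 2.03 FPKM in Wtap flox/flox (SD, n = 3 each). Rab6a, whose promoter holds CCAAT in either orientation, fell 1.54-fold (log2 fold change -0.60 with SE 0.061, limma adjusted p = 0.00142), the smallest adjusted p among the Rabs. The gene lies at chr7:100607410-100641268 on the plus strand (GRCm38) and shares 708 exonic bases with Mrpl48 on the opposite strand, whose reads cannot be told apart in libraries with no strand mark.

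Rab1a, which acts in transport from the ER to the Golgi, had 60.4, 62.2 and 65.1 FPKM in Wtap-βKO, against 86.2, 80.4 and 86.6 FPKM in Wtap flox/flox. It fell 1.35-fold without overlap (log2 fold change -0.43 with SE 0.057, limma adjusted p = 0.00391). Its paralogue Rab1b had 57.8, 67.3 and 57.4 FPKM in Wtap-βKO, against 76.9, 75.8 and 78.3 FPKM in Wtap flox/flox, and fell 1.27-fold (log2 fold change -0.34 with SE 0.072, limma adjusted p = 0.0193). Both paralogues were lower in all 3 Wtap-βKO libraries than in any Wtap flox/flox library, but the Rab1b call was lost without any library other than Wtap-βKO replicate 2, at adjusted p from 0.0579 to 0.0676. Rab2a, the most abundant Rab and a regulator of membrane traffic between the Golgi and the ER, had 106, 118 and 114 FPKM in Wtap-βKO, against 145, 139.5 and 145 FPKM in Wtap flox/flox. It fell 1.27-fold, also without overlap (log2 fold change -0.35 with SE 0.060, limma adjusted p = 0.00918).

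Rab18, found on the ER and on lipid droplets, had 39.5, 38.7 and 41.3 FPKM in Wtap-βKO, against 46.1, 46.5 and 50.2 FPKM in Wtap flox/flox (log2 fold change -0.25 with SE 0.057, limma adjusted p = 0.0237). Rab19 had 3.81, 5.0 and 4.27 FPKM in Wtap-βKO, against 6.27, 6.79 and 5.28 FPKM in Wtap flox/flox (log2 fold change -0.41 with SE 0.115, limma adjusted p = 0.0474). Neither gene overlapped between the groups. Rab18 lost its call without Wtap-βKO replicate 1 or any Wtap flox/flox library (adjusted p of 0.0589 to 0.0796), and Rab19 without Wtap-βKO replicate 1 or 3 or Wtap flox/flox replicate 1 or 2 (adjusted p of 0.117 to 0.136).

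Rab33b, a Golgi Rab that also binds the autophagy protein ATG16L1, was the ER and Golgi Rab that rose. It had 17.2, 16.97 and 17.3 FPKM in Wtap-βKO, against 13.9, 14.2 and 14.8 FPKM in Wtap flox/flox (log2 fold change 0.25 with SE 0.051, limma adjusted p = 0.0181). The groups did not overlap. The call was lost without Wtap-βKO replicate 1 or 3 or Wtap flox/flox replicate 1 or 2, at adjusted p of 0.0504 to 0.0734, and the gene shares 661 exonic bases with the unconfirmed gene model Gm38160 on the opposite strand. Rab6b, Rab36, Rab39, Rab39b, Rab2b and Rab43 were not called, with log2 fold changes between -0.13 and 0.31. The 15 members of the role summed to 342, 359 and 356 FPKM in Wtap-βKO, against 441, 429 and 451 FPKM in Wtap flox/flox, a ratio of means of 0.801.

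Rabs of the early endosome had 3 of 7 members lower and 0 higher, with a median log2 fold change of -0.20. Rab5c, a regulator of early endosome fusion, had 37.4, 42.6 and 39.5 FPKM in Wtap-βKO, against 48.4, 45.7 and 48.3 FPKM in Wtap flox/flox (log2 fold change -0.25 with SE 0.063, limma adjusted p = 0.0342). Rab5a, which shares that function, had 14.9, 15.7 and 15.8 FPKM in Wtap-βKO, against 18.7, 17.7 and 18.3 FPKM in Wtap flox/flox (log2 fold change -0.23 with SE 0.054, limma adjusted p = 0.0265). Rab22a, which acts between early and recycling endosomes, had 14.1, 13.3 and 14.2 FPKM in Wtap-βKO, against 17.2, 16.7 and 16.1 FPKM in Wtap flox/flox (log2 fold change -0.25 with SE 0.056, limma adjusted p = 0.0231). None of the 3 overlapped between the groups, and none was called when scaled to total recovered reads. All 3 calls were lost when any library other than Wtap-βKO replicate 2 was left out, at adjusted p of 0.0683 to 0.111 for Rab5c, 0.0605 to 0.0985 for Rab5a and 0.051 to 0.0878 for Rab22a. Rab5b had 23.3, 25.1 and 25.1 FPKM in Wtap-βKO, against 28.1, 29.8 and 26.8 FPKM in Wtap flox/flox, which did not overlap and did not pass (log2 fold change -0.20, adjusted p = 0.0663 by limma, and 0.0477 by limma voom on the recovered reads). Rab20, Rab21 and Rab31 overlapped between the groups and were not called.

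In the recycling endosome role, 3 of 9 members fell and 0 rose. Rab25, the epithelial member of the Rab11 family, had 16.6, 18.5 and 17.2 FPKM in Wtap-βKO, against 24.3, 23.6 and 23.2 FPKM in Wtap flox/flox. It fell 1.36-fold without overlap (log2 fold change -0.42 with SE 0.058, limma adjusted p = 0.00424). Rab14, which acts between the Golgi and endosomes, had 10.1, 10.999 and 10.2 FPKM in Wtap-βKO, against 13.1, 13.6 and 12.9 FPKM in Wtap flox/flox, 1.27-fold lower (log2 fold change -0.32 with SE 0.059, limma adjusted p = 0.0118). For Rab25 and Rab14 the Wtap-βKO libraries were all lower and the calls held under every alternative run.

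Rab17, a Rab of polarised epithelia, had the largest log2 change of the tested Rabs at a low level. Its means were 0.314 FPKM in Wtap-βKO and 1.33 FPKM in Wtap flox/flox. It thus passed the filter of 0.5 FPKM only through the group where it was higher, which limits its rank and its call. It had 0.293, 0.505 and 0.146 FPKM in Wtap-βKO (11, 18 and 5 reads), against 0.888, 1.75 and 1.35 FPKM in Wtap flox/flox (31, 55 and 48 reads). The groups did not overlap, and the ratio of means was 4.23-fold lower (log2 fold change -0.82 with SE 0.181, limma adjusted p = 0.0219). The log2 fold change depended on the pseudocount, at -1.84 with a pseudocount of 0.1 and -2.12 by limma voom on the recovered reads. The call was lost without Wtap-βKO replicate 1 or 3 or Wtap flox/flox replicate 2 or 3, at adjusted p of 0.0614 to 0.0726, and the ratio ran from 3.34-fold to 6.07-fold over the libraries left out.

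Rab35, which acts in rapid recycling to the plasma membrane, had 16.7, 19.2 and 18.4 FPKM in Wtap-βKO, against 12.1, 15.9 and 15.1 FPKM in Wtap flox/flox. The groups did not overlap, and the log2 fold change of 0.32 did not pass (SE 0.107, adjusted p = 0.0809 by limma), although 6 of the 19 alternatives called it higher. Rab11a, a regulator of slow recycling, had 25.95, 28.04 and 28.1 FPKM in Wtap-βKO, against 28.4, 28.5 and 28.6 FPKM in Wtap flox/flox without overlap (log2 fold change -0.06, adjusted p = 0.488 by limma). Its log2 fold change was 0.0092 after quantile normalization and 0.05 when scaled to total recovered reads, so its direction depended on the scaling. Rab11b, Rab4a, Rab4b and Rab15 were not called either. Rab11b had 15.5, 15.4 and 14.2 FPKM in Wtap-βKO, against 15.9, 15.8 and 14.96 FPKM in Wtap flox/flox. The pseudogene Rab11b-ps2 had 10.98, 9.947 and 7.856 FPKM in Wtap-βKO, against 11.032, 9.251 and 10.01 FPKM in Wtap flox/flox. How reads shared by Rab11b and Rab11b-ps2 were assigned was not stated in the sources at hand, which also limits the Rab11 family shares below.

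The late endosome, lysosome and lysosome-related organelle role had 1 tested member lower, 1 higher and 4 not called, and its 3 others (Rab32, Rab38 and Rab7b) were not tested. Rab7, the main Rab of late endosomes and lysosomes, had 71.4, 77.6 and 70.4 FPKM in Wtap-βKO, against 90.7, 89.1 and 96.1 FPKM in Wtap flox/flox. All Wtap-βKO values were lower, and Rab7 fell 1.26-fold (log2 fold change -0.33 with SE 0.061, limma adjusted p = 0.0124). Rab7-ps1, a pseudogene row of the same table, had 6.311, 4.49 and 5.501 FPKM in Wtap-βKO, against 7.157, 7.634 and 5.693 FPKM in Wtap flox/flox, and the assignment of reads shared by both was not stated in the sources at hand.

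Rab9, known for returning mannose 6-phosphate receptors from late endosomes to the Golgi, had 10.6, 10.4 and 10.01 FPKM in Wtap-βKO, against 7.77, 8.69 and 8.55 FPKM in Wtap flox/flox. It rose 1.24-fold without overlap (log2 fold change 0.29 with SE 0.064, limma adjusted p = 0.023). The call was lost without any library other than Wtap-βKO replicate 2, at adjusted p of 0.0501 to 0.0785. Rab29, a Rab tied to the kinase LRRK2 at stressed lysosomes, had 1.55, 1.71 and 2.41 FPKM in Wtap-βKO (43, 45 and 61 reads), against 0.739, 1.47 and 0.842 FPKM in Wtap flox/flox (19, 34 and 22 reads). Its values did not overlap, and it was not called (log2 fold change 0.53 with SE 0.176, limma adjusted p = 0.0785), except with protein-coding genes alone and without Wtap flox/flox replicate 2 (adjusted p = 0.0479). Rab12, Rab24 and Rab9b overlapped between the groups.

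In the values as deposited, Rabs of post-Golgi transport and the cilium stood nearly level as a group, with 78.6, 84.1 and 80.3 FPKM summed in Wtap-βKO, against 80.2, 79.1 and 79.9 FPKM in Wtap flox/flox. Of its 7 members 1 rose and 0 fell, and only Rab10 had a mean of at least 20 FPKM. Rab23, a negative regulator of Hedgehog signalling, had 4.49, 4.44 and 4.44 FPKM in Wtap-βKO, against 2.96, 3.05 and 3.08 FPKM in Wtap flox/flox. The replicates lay close together in either group, at 4.46 ± 0.0314 FPKM in Wtap-βKO and 3.03 ± 0.0611 FPKM in Wtap flox/flox (SD, n = 3 each), and Rab23 rose 1.47-fold (log2 fold change 0.44 with SE 0.064, limma adjusted p = 0.00526). The role also holds Rab10, known for GLUT4 transport in fat cells, with 31.4, 33.2 and 32.2 FPKM in Wtap-βKO, against 34.2, 33.7 and 34.2 FPKM in Wtap flox/flox (log2 fold change -0.07 with SE 0.048, limma adjusted p = 0.322). Its groups did not overlap, but its direction turned to 0.04 when scaled to total recovered reads. Rab8a, Rab8b, Rab13, Rab28 and Rab34 were not called.

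Of the less characterised members, Rab40b and Rab40c, whose proteins carry a SOCS box for ubiquitin ligase complexes, were tested and not called. Rab40b had 4.73, 5.15 and 4.39 FPKM in Wtap-βKO, against 3.81, 3.72 and 2.8 FPKM in Wtap flox/flox, without overlap (log2 fold change 0.38 with SE 0.111, limma adjusted p = 0.0542, called higher in 4 of the 18 alternatives that tested it). Members under the level tested included Rab42 with 5, 9 and 6 reads in Wtap-βKO, against 0, 3 and 3 reads in Wtap flox/flox, and Rab38, a melanosome Rab, with 8, 11 and 7 reads in Wtap-βKO, against 1, 5 and 3 reads in Wtap flox/flox. Values of the untested Rab27b, Rab42 and Rab38 did not overlap between the groups, and those of Rab32, Rab26, Rab7b, Rab30, Rab33a and Rab44 did.

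Paralogues of a subfamily share most of their function, so each one's share of the summed FPKM of its subfamily was compared. Rab6b made up 35.9%, 28.9% and 32.8% of Rab6a and Rab6b together in Wtap-βKO, against 25.3%, 21.0% and 21.6% in Wtap flox/flox, with no overlap. Rab6b itself, the paralogue best known from neurons, had 12.4, 8.79 and 11.1 FPKM in Wtap-βKO, against 10.8, 9.22 and 9.88 FPKM in Wtap flox/flox and was not called (log2 fold change 0.09, adjusted p = 0.632 by limma, and -0.0066 without Wtap-βKO replicate 1). Rab25 made up 28.6%, 29.8% and 28.9% of the Rab11 family in Wtap-βKO, against 35.4%, 34.8% and 34.8% in Wtap flox/flox, also with no overlap. The shares of Rab11a (means of 45.7% in Wtap-βKO and 42.1% in Wtap flox/flox) and Rab11b (25.2% and 23.0%) were higher without overlap.

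Within the Rab3 family the share of Rab3b was 13.2%, 20.9% and 12.9% in Wtap-βKO, against 12.2%, 12.4% and 10.6% in Wtap flox/flox, and that of Rab3c was 2.81%, 2.55% and 2.42% in Wtap-βKO, against 1.81%, 1.17% and 1.44% in Wtap flox/flox. Neither share overlapped between the groups, while the shares of Rab3a and Rab3d did. In the Rab5 family the shares averaged 19.4 ± 0.497% and 19.4 ± 0.365% for Rab5a, 30.7 ± 0.553% and 30.1 ± 1.74% for Rab5b, and 49.9 ± 1.02% and 50.5 ± 1.39% for Rab5c (Wtap-βKO and Wtap flox/flox, SD, n = 3 each), and all 3 overlapped. The subfamilies described were picked from a larger set for which shares were computed. Of the others, shares in the Rab27, Rab39 and Rab40 subfamilies did not overlap between the groups. Those in Rab1, Rab2, Rab4, Rab8, Rab9, Rab22a with Rab31, Rab33, and Rab32 with Rab38 did overlap. An exact permutation test of 3 against 3 samples cannot give a two-sided p under 0.1, so the shares are given as values without a test.

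**Figure D4:**
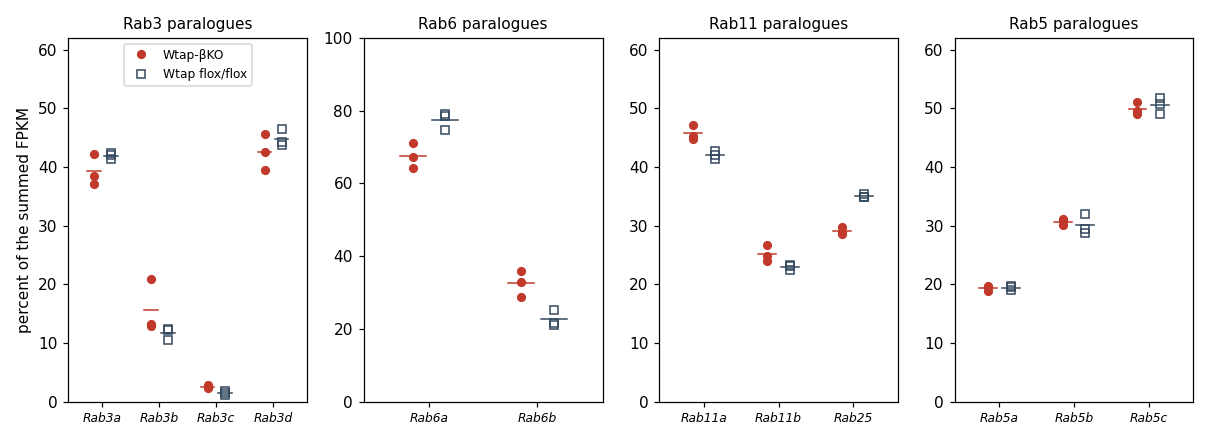
Percent of the summed FPKM of a subfamily (y axis) held by each paralogue (x axis), for Rab3, Rab6, Rab11 and Rab5, with 1 point per islet sample, lines at the means, filled circles for Wtap-βKO and open squares for Wtap flox/flox. Rab6b averaged 32.6% in Wtap-βKO and 22.6% in Wtap flox/flox, and the Rab5 shares overlapped.

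The proteins that load, switch off and read Rabs were taken as 149 further genes in 6 lists, of which 148 were in the table and 141 were tested. Of these, 27 fell and 4 rose (22.0%), against 20.1% of all genes tested (11.3% lower and 8.77% higher), with a median log2 fold change of -0.08. The share called in either direction was thus near that of all genes, while the calls leaned to the lower direction. The groups did not overlap for 58 of the 141 in the lower direction and 15 in the higher. Over all genes these shares were 22.1% and 19.1%. The count of higher genes moved most with the setting, to 15 (with 16 lower) when scaled to total recovered reads and 10 by limma voom on the recovered reads. Leaving out a library gave 14 to 26 lower and 1 to 4 higher. Without Wtap-βKO replicate 1 there was 1 higher gene, without Wtap-βKO replicate 3 there were 14 lower and 1 higher, and without Wtap flox/flox replicate 1, 2 or 3 there were 16, 15 and 16 lower and 1, 1 and 2 higher.

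Among 15 effectors of Rab3 and Rab27 at granules, 4 of 12 tested fell and 0 rose, with a median of -0.25. That is 33.3%, against 20.1% of all genes (11.3% lower and 8.77% higher). Sytl4 encodes granuphilin, which binds Rab27a and docks insulin granules at the plasma membrane. It had 15.9, 21.5 and 15.8 FPKM in Wtap-βKO, against 77.04, 87.6 and 91.5 FPKM in Wtap flox/flox, 4.82-fold lower (log2 fold change -2.22 with SE 0.127, limma adjusted p = 0.000214). On log2(FPKM + 1), the change of Sytl4 exceeded that of any tested Rab, and Rab27a, its partner, fell 1.28-fold. By ratio of means the low-level Rab17 came near it, at 4.23-fold lower. With a library left out, that ratio ran from 3.34-fold to 6.07-fold for Rab17 and from 4.57-fold to 5.39-fold for Sytl4. Mlph encodes melanophilin, which links Rab27a to myosin Va, and had 0.277, 0.459 and 0.195 FPKM in Wtap-βKO, against 2.77, 3.66 and 2.35 FPKM in Wtap flox/flox, 9.44-fold lower (log2 fold change -1.58 with SE 0.153, limma adjusted p = 0.00124). Neither Sytl4 nor Mlph overlapped between the groups. Mlph, with means of 0.31 FPKM in Wtap-βKO and 2.93 FPKM in Wtap flox/flox, passed the filter of 0.5 FPKM only through its higher group.

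Sytl1, another synaptotagmin-like Rab27 effector, fell 1.47-fold (log2 fold change -0.50, adjusted p = 0.0191 by limma), and Coro1c, a coronin that binds Rab27a, fell 1.31-fold (log2 fold change -0.33, adjusted p = 0.0395 by limma). The Sytl1 call was lost without Wtap-βKO replicate 1 or 3 or Wtap flox/flox replicate 2 or 3 (adjusted p of 0.0542 to 0.0672), and that of Coro1c without any library other than Wtap flox/flox replicate 3 (0.071 to 0.116). Rph3al, which encodes the granule protein Noc2, had 29.97, 37.9 and 30.3 FPKM in Wtap-βKO, against 37.5, 38.9 and 38.9 FPKM in Wtap flox/flox. It was not called (log2 fold change -0.23, adjusted p = 0.126 by limma), and without Wtap-βKO replicate 2 its adjusted p was 0.00657. The counts of lower genes in this list were 2 without Wtap-βKO replicate 1 or 3 or Wtap flox/flox replicate 2.

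Of 46 exchange factors tested, 8 fell and 2 rose. In either direction that is 21.7%, near the 20.1% of all genes (11.3% lower and 8.77% higher). Dennd4c, whose protein activates Rab10, had 23.2, 19.1 and 20.1 FPKM in Wtap-βKO, against 34.5, 36.6 and 35.8 FPKM in Wtap flox/flox, 1.71-fold lower (log2 fold change -0.75 with SE 0.077, limma adjusted p = 0.00153). Madd, whose protein activates Rab3 and Rab27, had 29.1, 23.98 and 28.4 FPKM in Wtap-βKO, against 32.9, 36.2 and 35.7 FPKM in Wtap flox/flox, 1.29-fold lower (log2 fold change -0.35 with SE 0.085, limma adjusted p = 0.0282). Both were without overlap, and Madd lost its call without Wtap-βKO replicate 3 or any Wtap flox/flox library, at adjusted p of 0.0543 to 0.0928. Dennd2d, whose protein activates Rab9, fell 1.40-fold (log2 fold change -0.43, adjusted p = 0.00635 by limma), and the TRAPP subunit genes Trappc10 and Trappc12 fell 1.30-fold and 1.28-fold (adjusted p = 0.0102 and 0.021). Trappc12 lost its call without any library other than Wtap-βKO replicate 2, at adjusted p of 0.0524 to 0.0747.

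Of 37 GTPase-activating proteins tested, 7 fell and 1 rose, with a median of -0.14. In either direction that is 21.6%, again near the 20.1% of all genes (11.3% lower and 8.77% higher). Tbc1d22b had 15.3, 14.1 and 15.1 FPKM in Wtap-βKO, against 23.3, 24.2 and 24.4 FPKM in Wtap flox/flox, 1.61-fold lower (log2 fold change -0.66 with SE 0.055, limma adjusted p = 0.000777). Rab3gap2 and Rab3gap1, the subunits of a complex that acts on Rab3 and on Rab18, fell 1.34-fold and 1.25-fold (log2 fold changes -0.39 and -0.29, adjusted p = 0.00612 and 0.0118 by limma). Tbc1d1, studied for glucose uptake in muscle, fell 1.39-fold and Tbc1d16 fell 1.28-fold (adjusted p = 0.00302 and 0.00547 by limma). None of these 5 overlapped between the groups.

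Of 33 tested effectors of endosomal and Golgi Rabs, 6 fell and 1 rose. In either direction that is 21.2%, near the 20.1% of all genes (11.3% lower and 8.77% higher). Of the 6, 3 are named here by the rule. Uso1, which encodes the Rab1 effector p115, had 50.6, 42.9 and 50.6 FPKM in Wtap-βKO, against 71.1, 70.1 and 72.3 FPKM in Wtap flox/flox, 1.48-fold lower (log2 fold change -0.56, adjusted p = 0.00381 by limma). Gorasp2 and Golga2, which encode GRASP55 and GM130, fell 1.32-fold and 1.26-fold (adjusted p = 0.00526 and 0.0102 by limma). Ocrl, an inositol 5-phosphatase that binds several Rabs, rose, with 28.8, 23.9 and 26.98 FPKM in Wtap-βKO, against 18.5, 19.1 and 18.4 FPKM in Wtap flox/flox, 1.42-fold higher (log2 fold change 0.48 with SE 0.074, limma adjusted p = 0.00608). The other 3 regulators called higher were named after their values were seen, namely Rin2 (1.45-fold), Trappc5 (1.19-fold) and Tbc1d25 (1.47-fold), at adjusted p of 0.03, 0.0442 and 0.031 by limma. Rin2 and Tbc1d25 were lost without any library other than Wtap-βKO replicate 2, and Trappc5 without any library, and over all alternatives their adjusted p reached 0.0924, 0.0942 and 0.135 in that order.

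Of the 8 genes for lipid attachment and membrane extraction, 1 fell and 0 rose. Chm, which encodes the escort protein REP1, had 4.79, 3.21 and 4.12 FPKM in Wtap-βKO, against 5.96, 5.73 and 5.75 FPKM in Wtap flox/flox, 1.44-fold lower (log2 fold change -0.45 with SE 0.118, limma adjusted p = 0.039). Its call was lost without Wtap-βKO replicate 3 or any Wtap flox/flox library, at adjusted p of 0.087 to 0.11. Gdi2, which extracts Rabs from membranes, was not called (log2 fold change -0.15, adjusted p = 0.0923 by limma). Of 5 tested Rab-like GTPases outside the naming pattern, Rabl6 fell 1.21-fold (log2 fold change -0.26, adjusted p = 0.0192 by limma) and 4 were not called. The Rabl6 call was lost without any library other than Wtap-βKO replicate 2, at adjusted p of 0.0523 to 0.07.

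**Figure D5:**
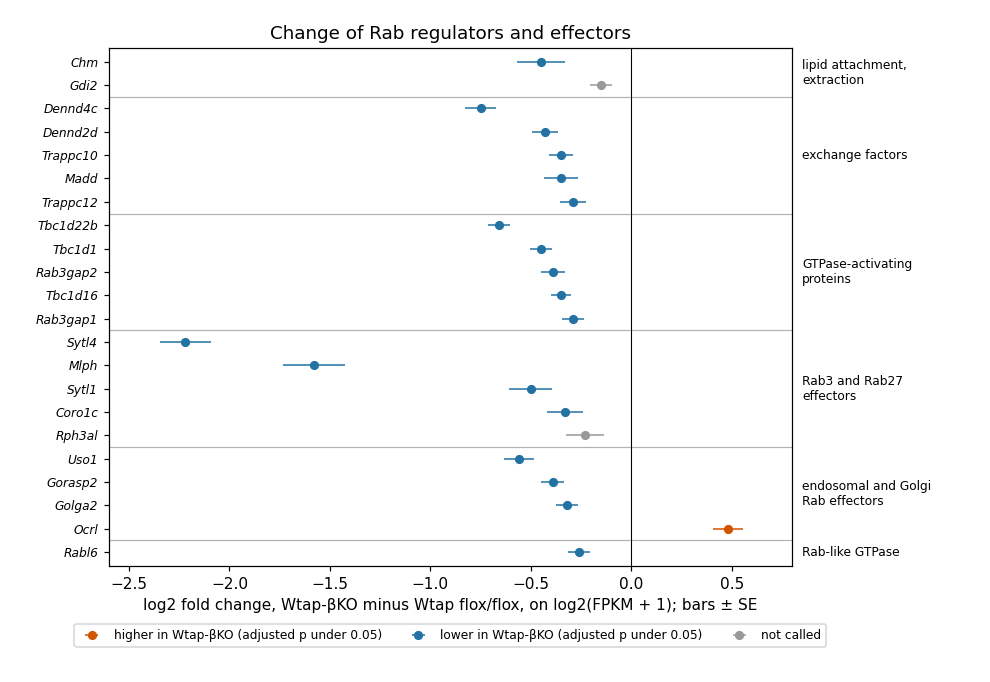
Log2 fold change on log2(FPKM + 1), Wtap-βKO minus Wtap flox/flox (x axis), of the Rab regulators and effectors named in the text by rule (y axis, grouped by list), with bars of 1 SE as moderated by limma. Sytl4 lies farthest left at -2.22, and Ocrl is the 1 point called higher.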

How the data were processed

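Poly-A RNA of 6 islet samples was sequenced with paired reads and no strand mark, per the labels' protocols. The authors deposited FPKM values per gene with a gene length. The submitters' processing notes name DESeq2 1.20.0, featureCounts 1.5.0-p3, HISAT2 2.0.5 and CASAVA, and as builds mm10 and GRCm38. Multiplied by gene length, 100.0% of the deposited FPKM values gave whole reads within 0.01 read, and those reads give the depth. The library size implied by 1 read was 1.07, 1.04 and 1.04 times the recovered total in Wtap-βKO replicates 1, 2 and 3. In Wtap flox/flox replicates 1, 2 and 3 it was 0.988, 0.966 and 0.952 times. The values thus already carried a scaling that differed between the groups, and it lowers Wtap-βKO against Wtap flox/flox relative to scaling by total reads. FPKM values, sums, shares of summed FPKM and folds are given on the deposited scale. Depth limits Rabs under about 100 reads, such as Rab17 and Rab42, and reads from PCR are not independent molecules.

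Values were tested as log2(FPKM + 1), which understates changes of low genes, for genes with a mean of at least 0.5 FPKM, with limma 3.58.1 in R 4.3.3 (lmFit, eBayes with trend), as a two-sided test, with Benjamini-Hochberg adjustment over all 15927 genes and a threshold of 0.05. Folds are ratios of mean FPKM, and "not overlapping" means that every value of 1 group lies above every value of the other. Members, gene lists and the naming rule were chosen with earlier results of these data known. The rule allowed all Rabs, up to 4 called genes of each pathway list (by smallest adjusted p, at a mean of at least 1 FPKM in the higher group), and Madd, Rab3gap1, Rab3gap2, Gdi2, Rph3al and Sytl4, and 1 gene it names is not reported here. Coordinates are those of the table, and 57 of 59 members had the same ones in GENCODE M21. Of the 59, 20 share exonic bases with another GENCODE gene, called members among them being Rab7 (204 bases), Rab27a (149), Rab18 (305), Rab3a (29), Rab6a (708), Rab5a (221), Rab22a (119) and Rab33b (661). The 19 alternatives are given with their effects in the closing section. Samples within a group all differed beyond sampling noise (chi-square per degree of freedom 5.38 to 18.1). Wtap-βKO replicate 2 stood apart, at 18.1 against replicate 1 and 17.2 against replicate 3. The other pairs gave 5.41 in Wtap-βKO and 5.38 to 6.61 in Wtap flox/flox. Python 3.11.15, pandas 2.3.3, numpy 2.4.6 and matplotlib 3.10.9 were used for the rest.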

Additional observations from a re-analysis of the deposited data

How the results depend on the processing

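The alternatives were median-of-ratios scaling, quantile normalization, rescaling without the 50 highest genes, no filter on low values or a mean of at least 5 FPKM, pseudocounts of 0.1 and 0.5, no variance trend, a robust variance trend, protein-coding genes alone, a replicate block and leaving out each library. Scaling to total recovered reads and limma voom on the recovered reads were chosen after seeing the data.

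Over all genes, 1397 were higher and 1798 lower. Scaling to total recovered reads gave 2334 and 1094, and leaving out a library gave 782 to 1380 and 1027 to 1853. For the Rabs, 3 higher became 5 when rescaled without the 50 highest genes or scaled to total recovered reads, 6 with protein-coding genes alone, and 1 to 3 with a library left out. The 17 lower Rabs became 10 when scaled to total recovered reads and 8 to 17 with a library left out. For regulators and effectors, 4 higher became 1 with no filter, 2 at a mean of at least 5 FPKM, 7 with protein-coding genes alone, 2 with the replicate block, 15 when scaled to total recovered reads, 10 by limma voom and 1 to 4 with a library left out, and 27 lower became 16 when scaled to total recovered reads and 14 to 26 with a library left out. The cause was not tested.

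Of the 20 Rab calls, 17 were kept after quantile normalization (Rab18, Rab22a and Rab19 lost), 17 with no filter, 15 with no variance trend, 13 when scaled to total recovered reads and 18 by limma voom. Correlations of the deviations of samples with the same number were 0.0293, 0.0377 and 0.0185. Samples of unlike number gave -0.0371 to 0.0132, all under those of the same number. The values are small, and whether samples of the same number share a batch was not tested. With the replicate block 16 of 20 calls were kept, 4 Rabs were higher and 14 lower, and 1148 genes were higher and 1490 lower overall.

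No called Rab changed direction in any alternative. Among Rabs not called, log2 fold changes turned sign when scaled to total recovered reads for Rab10 (0.04), Rab11a (0.05), Rab11b (0.06), Rab39b (0.0053), Rab36 (0.06), Rab24 (0.03) and Rab9b (0.02), and after quantile normalization for Rab11a (0.0092) and Rab11b (0.01). They also did so without Wtap-βKO replicate 2 for Rab3b (-0.17), Rab40c (-0.01) and Rab9b (0.05), without Wtap-βKO replicate 1 for Rab6b (-0.0066), without Wtap-βKO replicate 3 for Rab24 (0.02), without Wtap flox/flox replicate 2 for Rab24 (0.03) and without Wtap flox/flox replicate 3 for Rab39b (0.0053). The other end of the range with a library left out was 0.14 for Rab3b, -0.18 for Rab39b, 0.22 for Rab6b, 0.11 for Rab40c, -0.18 for Rab24 and -0.16 for Rab9b.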
